A study of Mus musculus with 11 samples.

Results

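Kinesins are motor proteins that use ATP to move along microtubules or, in some families, to take microtubule ends apart. In dividing cells they build the spindle, align chromosomes and organise the midzone where the cell is cut. Outside division they carry vesicles and organelles, and kinesin-2 motors drive the intraflagellar transport that builds cilia and the sperm tail. In the testis, spermatogonia divide by mitosis, spermatocytes pass through a long meiotic prophase without dividing, and spermatids later grow a flagellum, so one family serves very different tasks within one lineage. The members described here are all 38 rows of the deposited molecule table whose symbol begins with Kif and a digit, of 20265 genes on the autosomes, X and Y. They comprise 37 genes and 1 pseudogene, Kif4-ps. The rule leaves out kinesins with other names, such as Kifc1 and Cenpe, which are treated below with the partner genes. By role, 11 members act on the spindle or in cytokinesis (the mitotic group) and 3 form the depolymerase group. A further 4 belong to kinesin-2, 5 act at the cilium or axoneme, 12 carry cargo and 2 are of other kinds. The depolymerase Kif2c was counted with the mitotic group, so the group counts depend on how members were assigned.

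The cells came from the testes of 3 adult mice carrying a Dazl-GFP reporter, in which the germ-cell gene Dazl drives green fluorescent protein. Live GFP-positive cells were sorted 1 to a well and sequenced by SORT-Seq, a plate method that counts unique molecular identifiers (UMIs), that is, single captured molecules near the 3′ end of polyadenylated RNA. There was no treatment, and strain and exact age are not given in the sources used here. The replicate was the mouse, and all comparisons were made between stages within these 3 animals. The tests took each stage of a mouse as a separate sample beside a mouse term. Their p-values therefore do not directly measure how a change varied among the mice. Mouse 1 alone was processed with the first CEL-Seq version, mice 2 and 3 with the second, and 1 of the 2 libraries of mouse 3 was sorted with a gate rather than with an index.

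Of 1920 wells, 1448 held at least 1000 UMIs: 545, 321 and 582 of them in the respective mice, at median depths of 16275, 9830 and 14132 UMIs. Mitochondrial UMIs made up 4.64%, 11.3% and 9.67%. Wells were clustered on genes of the odd-numbered autosomes, kinesins left out, and 1242 wells fell into 11 stages ordered along a pseudotime. Stages 1 to 3 (331 wells) formed the spermatogonia-like class, stages 6 to 8 (368 wells) the leptotene and zygotene-like class and stages 9 to 11 (322 wells) the pachytene-like class. The undifferentiated spermatogonial markers summed to 1557 CPM (counts per 1000000 UMIs) at stage 1 and 27.4 CPM at stage 11, while the pachytene markers went from 867 to 12575 CPM. Stage 4 was preleptotene-like. Stage 5 stayed unnamed and was led by Stra8, Prdm9 and Dmc1, genes of meiotic entry and recombination, with the Sertoli cell gene Clu among its leading genes. Stage 1 was led by Sdc4, Ccnd2, Egr4 and Ret, tied between both spermatogonial marker lists, and was used as spermatogonia-like, a choice made after the clusters were seen. UMIs were summed per mouse and stage into 33 sums of 123561 to 5051118 UMIs. Median depth per well ran from 5727 UMIs at stage 6 to 81189 at stage 11, so levels are given as CPM scaled with TMM factors unless another scale is named. Marker sums are CPM without these factors.

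Kinesins as a family were detected throughout, with 89466 UMIs over all wells, and its make-up differed between stages. From spermatogonia-like to pachytene-like stages, 30 kinesins had enough counts to be tested; 7 rose and 18 fell (edgeR quasi-likelihood test with a mouse term, Benjamini-Hochberg adjusted p under 0.05). Among all 5297 genes tested the shares were 40.4% higher and 43.9% lower, 84.4% in either direction. The values of the 3 mice did not overlap between the classes for 21 of 30 kinesins, against 71.2% of all genes. The median log2 change of the kinesins was -0.77 and that of all genes -0.08. The risers were Kif9, Kif6, Kif3b, Kif24, Kif15, Kif27 and Kif2a, of which only Kif15 belongs to the mitotic group. The fallers took in 7 of 11 mitotic kinesins and 8 of 9 tested cargo carriers, together with Kif17, Kif7 and Kif26a. Scaling by library size alone moved the median of all genes to -0.46 and gave 7 higher and 23 lower kinesins; median-ratio scaling moved it to -0.34 and gave 7 and 21. Over all stages, 29 of 30 kinesins changed (94.9% of all genes), the exception being Kif3a with an adjusted p of 0.11.

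**Figure D1:**
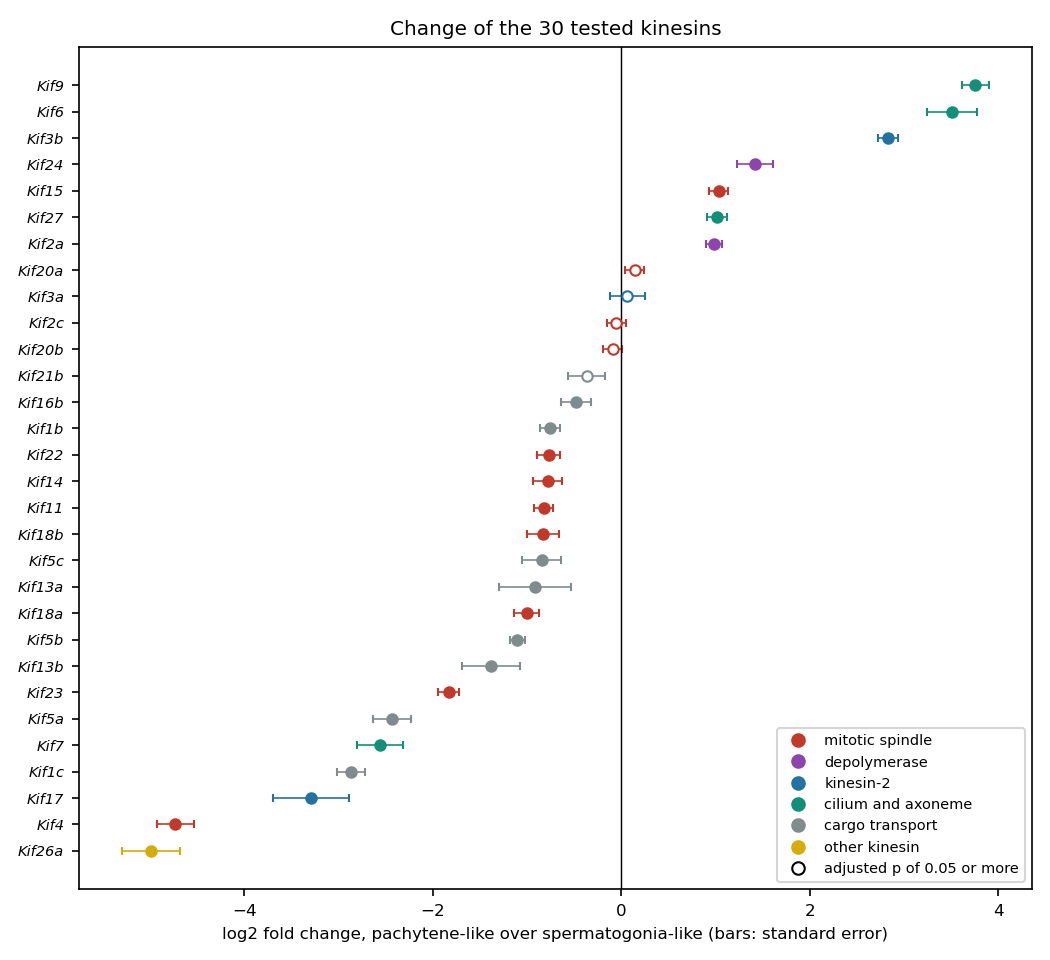
Log2 change from spermatogonia-like to pachytene-like stages for the 30 tested kinesins, coloured by role; points are fitted values, bars are standard errors, and filled points have an adjusted p under 0.05. Kif9, Kif6 and Kif3b stand at the top with 3.76, 3.51 and 2.83, while Kif26a and Kif4 stand at the bottom with -4.98 and -4.73.

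Of the 11 mitotic kinesins, 7 fell from spermatogonia-like to pachytene-like stages, Kif15 rose, and Kif20a, Kif20b and Kif2c were not called. Kif23 is the motor subunit of centralspindlin, which with Racgap1 bundles the midzone and in germ cells helps form the intercellular bridges. Its level was 122, 167 and 123 CPM in mice 1, 2 and 3 in the spermatogonia-like class and 32.5, 43.7 and 32.2 CPM in the pachytene-like class. All pachytene-like values lay below all spermatogonia-like values, a fall of 3.55-fold (log2 -1.83, SE 0.11, adjusted p = 5.40e-22). Kif4, a chromokinesin that condenses chromosomes and sets midzone length, is the only kinesin here on the X chromosome, which is transcriptionally silenced in pachytene. It went from 77.9, 108 and 81.9 CPM to 1.29, 3.37 and 3.98 CPM (log2 -4.73, SE 0.20, adjusted p = 1.61e-29). By stage, Kif4 stood at 37.4, 39.0 and 44.0 CPM at stage 7 and at 0.650, 2.68 and 0 CPM at stage 8, where the mice gave 1, 1 and 0 UMIs. The drop to these few UMIs therefore lay between neighbouring stages within the leptotene and zygotene-like class. Stage means had already declined before it, from 142 CPM at stage 3 to 99.3, 74.2 and 56.5 CPM at stages 4, 5 and 6. Pachytene markers summed to means of 2059 CPM at stage 7 and 4922 CPM at stage 8. Leptotene and zygotene markers summed to 6326 and 5250 CPM there. Stage 8 thus carried both marker sets, and whether the Kif4 drop from stage 7 to stage 8 came before pachytene was not tested.

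Kif11, the motor that pushes spindle poles apart, went from 296, 180.0 and 134 CPM to 154, 87.8 and 86.8 CPM (log2 -0.82, SE 0.10, adjusted p = 5.42e-11). Every mouse was lower in pachytene-like cells, but the classes overlapped because mouse 1 was the highest in both. Kif18a, which dampens chromosome oscillation at the metaphase plate, went from 52.7, 83.1 and 58.0 CPM to 30.6, 31.2 and 29.8 CPM, 2.01-fold lower (adjusted p = 5.69e-10). Its relative Kif18b, the chromokinesin Kif22 and the cytokinesis motor Kif14 fell by 0.83, 0.77 and 0.78 on the log2 scale, with no overlap between the classes. For Kif14 the call was lost on the deposited read counts (log2 -0.57).

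Kif15 can take over from Kif11 in keeping poles apart. Its level was 109.6, 90.0 and 69.5 CPM in spermatogonia-like and 179, 199 and 138 CPM in pachytene-like cells, with no overlap (log2 1.04, SE 0.10, adjusted p = 1.04e-13). From stage 1, with 45.2, 69.6 and 44.5 CPM, to stage 11, with 181, 188 and 139.9 CPM, the log2 change was 1.71 (SE 0.19). Between the spermatogonia-like and pachytene-like classes, Kif15 and Kif11 thus moved in opposite directions. By stage, Kif15 means were 131 CPM at stage 3, 154 CPM at stage 5, 57.8 CPM at stage 7 and 172 CPM at stage 9. Its highest stage was stage 3 in mouse 1, stage 9 in mouse 2 and stage 10 in mouse 3, so the rise was not steady.

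Kif20a, which carries the chromosomal passenger complex to the midzone, Kif20b, which acts at the midbody, and Kif2c, a depolymerase at centromeres, were not called. Kif20a stood at 104, 132 and 56.4 CPM before and 109, 109.8 and 78.7 CPM after (log2 0.14, SE 0.10, adjusted p = 0.19), with a sign that turned under median-ratio (-0.11) and library size scaling (-0.23), the latter with a call (adjusted p = 0.0416). Kif20b stood at 189, 199 and 136 CPM against 172, 166 and 138 CPM (log2 -0.09, SE 0.10). Kif2c stood at 72.2, 93.0 and 88.9 CPM against 67.1, 72.6 and 97.6 CPM (log2 -0.05, SE 0.10). Kif20b and Kif2c were called lower under both of these scalings. For these 3 genes the sign or the call depended on the scaling, and a missing call does not show that their levels were equal.

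**Figure D2:**
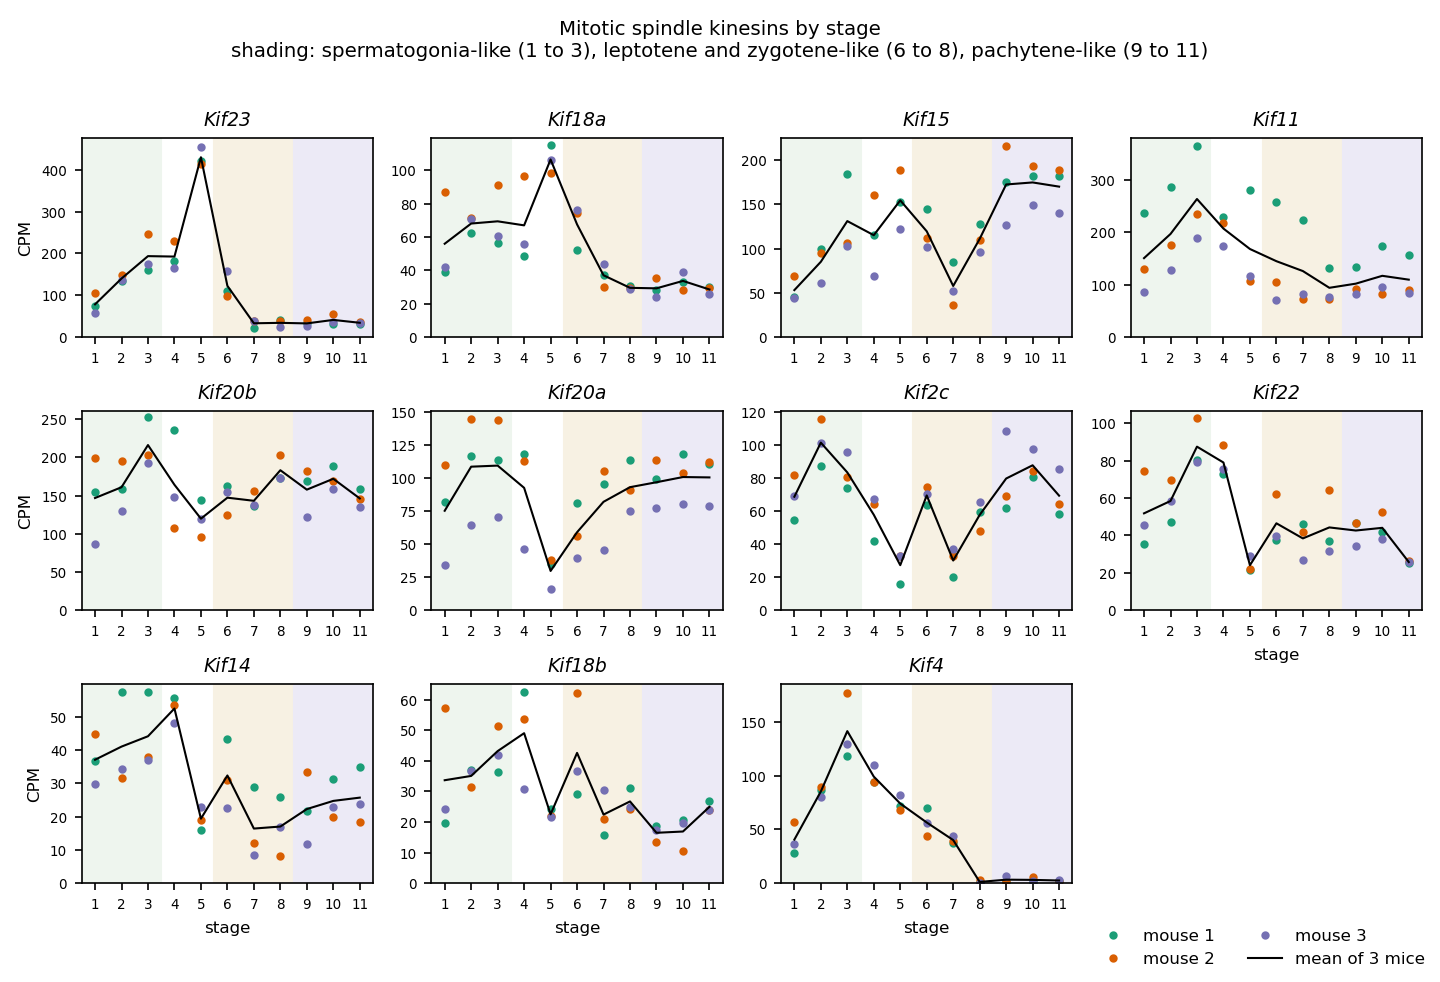
CPM of the 11 mitotic kinesins at stages 1 to 11; points are the 3 mice and lines their mean. Kif23 peaks at stage 5 in all 3 mice, mean Kif4 declines from stage 3 to stage 7 and drops further at stage 8, and Kif15 is higher from stage 9 onwards than at stage 1.

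The change came in steps. From spermatogonia-like to leptotene and zygotene-like stages, 5 kinesins rose and 15 fell, against 31.3% and 41.7% of all genes (72.9% in either direction), and 14 did not overlap (61.4% of all genes). The median was -0.46, with -0.19 for all genes. None of the 11 mitotic kinesins rose, 7 fell and 4 were not called. Kif2c fell from the values above to 47.9, 51.9 and 57.8 CPM (log2 -0.73, SE 0.13), and Kif4 to 35.9, 28.4 and 33.5 CPM (log2 -2.56, SE 0.23). Without mouse 2 the number of risers was 3, Kif24 and Kif3a no longer being called.

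From leptotene and zygotene-like to pachytene-like stages, 9 kinesins rose and 9 fell, against 38.0% and 28.0% of all genes (65.9% in either direction), and 15 did not overlap (53.6% of all genes). The median was -0.14, with 0.09 for all genes. Scaling by library size alone gave 7 higher and 15 lower kinesins and 41.4% in place of 57.6% higher among all called genes. Mitotic members went both ways. Kif15, Kif2c and Kif20a rose by 0.85, 0.67 and 0.38 on the log2 scale, and Kif18a, Kif18b, Kif23 and Kif4 fell. Kif2c passed from 47.9, 51.9 and 57.8 CPM to 67.1, 72.6 and 97.6 CPM without overlap. The call for Kif20a was lost under 9 of 18 alternatives, among them without mouse 3 (0.24) and under median-ratio scaling (0.24). That for Kif4 (-2.16, SE 0.62) was lost without mouse 1 (-1.78).

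Between the single earliest and latest stages, 9 kinesins rose and 13 fell, against 37.9% and 38.8% of all genes (76.7% in either direction), and 19 did not overlap (68.0% of all genes). Median-ratio scaling gave 7 and 16, and library size scaling 7 and 20. Kif20a rose from 81.9, 109 and 34.0 CPM to 110.2, 112 and 78.5 CPM (log2 0.57, SE 0.18, adjusted p = 0.00474), in 3 of 3 mice though with overlapping values. That call was lost under 5 of 18 alternatives, among them without mouse 3 (0.23) and under library size scaling (0.07). The cargo motors with the steepest difference in this comparison are taken up below.

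Promoter sequence was available from RefSeq (build GRCm38.p6) for 31 of the 38 members, as 300 bases from 250 before to 50 after the annotated start. Genes of late cell cycle phases often carry the cell-cycle homology region TTTGAA near a CCAAT box, and the TTTGAA letters, searched on both strands, were found in 9 of 10 mitotic kinesin promoters and in 17.9% of all 32851 promoters. Kif18a was the exception. They were found in 0 of 4 kinesin-2, 0 of 3 depolymerase, 1 of 4 axonemal (Kif27) and 1 of 8 cargo promoters (Kif1a). Of the promoters of other kinds, 1 of 2 held them (Kif26b). CCAAT stood in 6 of 10 mitotic promoters and 37.4% of all. It was also in 2 of 3 depolymerase, 2 of 4 kinesin-2, 2 of 4 axonemal, 1 of 2 other and 1 of 8 cargo promoters. CNCCTCAG, a motif reported for the meiotic factor STRA8, stood in 1 of 10 mitotic promoters, that of Kif23, and in 7.94% of all, with Kif6 and Kif24 the other kinesins that held it. The X-box core GTTGCC of the ciliary RFX factors stood in 1 of 4 axonemal (Kif9), 3 of 4 kinesin-2 (Kif17, Kif3a and Kif3c), 2 of 3 depolymerase (Kif24 and Kif2a), 2 of 10 mitotic (Kif18a and Kif23) and 2 of 8 cargo promoters (Kif16b and Kif1a), and in 12.5% of all. A longer form of the X-box, which overlaps it, stood in Kif9 and Kif24 and in 1.18% of all. The E2F letters TTNGCGC stood in 2 of 10 mitotic promoters (Kif15 and Kif18a), in that of Kif16b and in 6.36% of all. A full cyclic AMP response element stood in Kif18a, Kif17 and Kif5c and in 1.79% of all, and TTCGAA, a variant of the homology region, in Kif24 and in 1.56% of all. These are matches of letters, not measured binding sites. Windows of 180 bases, from 150 before to 30 after the start, are printed for the mitotic kinesin with the stage 5 peak, for the pole motor that fell, for its backup that rose and for the axonemal kinesin that rose most. Capitals mark the cell-cycle homology region, the CCAAT box and the STRA8 motif in the mitotic genes and the X-box core in Kif9, on either strand. The windows lie at chr9:61946770-61946949 (minus strand, Kif23), chr19:37376232-37376411 (plus, Kif11), chr9:122950931-122951110 (plus, Kif15) and chr9:110476808-110476987 (plus, Kif9).
Kif23: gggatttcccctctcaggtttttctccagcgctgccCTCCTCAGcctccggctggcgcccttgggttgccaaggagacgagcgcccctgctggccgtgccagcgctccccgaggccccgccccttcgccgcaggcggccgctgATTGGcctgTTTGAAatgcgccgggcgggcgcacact
Kif11: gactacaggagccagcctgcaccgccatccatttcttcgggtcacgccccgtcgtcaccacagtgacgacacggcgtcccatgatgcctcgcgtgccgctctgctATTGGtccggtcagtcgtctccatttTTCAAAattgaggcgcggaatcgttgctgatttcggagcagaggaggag
Kif15: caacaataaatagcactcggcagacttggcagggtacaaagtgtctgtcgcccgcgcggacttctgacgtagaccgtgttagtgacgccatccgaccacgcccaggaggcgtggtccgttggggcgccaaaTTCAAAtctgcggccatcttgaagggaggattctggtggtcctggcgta
Kif9: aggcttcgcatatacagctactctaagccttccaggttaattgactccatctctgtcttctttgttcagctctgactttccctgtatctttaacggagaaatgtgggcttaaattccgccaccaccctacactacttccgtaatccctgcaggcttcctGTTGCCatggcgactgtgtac

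Kif15, whose expression rose, carried the same TTTGAA letters as Kif11, Kif22 and Kif23, which fell. As 9 of 10 mitotic promoters carried these letters, they could not separate risers from fallers. A link between the letters and direction was not tested. Of the mitotic promoters, that of Kif23 was the one with the homology region, the CCAAT box and the STRA8 motif together. That rests on a single STRA8 match, in 1 of 10 mitotic promoters beside 7.94% of all promoters. Control of Kif23 by STRA8 was not tested.

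Stage 5, the cells led by Stra8, stood apart in its mitotic kinesins, and its comparison with the spermatogonia-like class was added after the values were seen. There 10 kinesins rose and 8 fell, against 26.2% and 28.8% of all genes (55.0% in either direction), and 18 did not overlap (51.1% of all genes); the median was -0.24. Kif23 reached 420.1, 415 and 455 CPM, its highest stage in 3 of 3 mice, a rise of 3.45-fold (log2 1.79, SE 0.13, adjusted p = 1.35e-17). It had stood at 181, 231 and 166 CPM at stage 4, was back to 110.2, 99.3 and 158 CPM at stage 6 and reached 21.6, 39.0 and 38.9 CPM at stage 7. The stage 5 values lay far above those of both neighbouring stages in each mouse.

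Kif18a and Kif15 also rose at stage 5. Kif18a was at 115, 98.2 and 106 CPM (log2 0.79, SE 0.19, adjusted p = 0.000272) and Kif15 at 153, 188 and 122 CPM (log2 0.88, SE 0.16, adjusted p = 5.48e-06), both without overlap. Other spindle kinesins had their lowest stage means there. Kif20a fell to 34.8, 38.2 and 15.8 CPM (log2 -1.69, SE 0.23, adjusted p = 1.40e-08), Kif2c to 16.1, 32.7 and 33.1 CPM (log2 -1.58, SE 0.22, adjusted p = 1.61e-08) and Kif22 to 21.4, 21.8 and 28.8 CPM (log2 -1.31, SE 0.24, adjusted p = 7.37e-06). None of these 3 overlapped with the spermatogonia-like values. Kif14 and Kif20b fell by 0.95 and 0.46 on the log2 scale. The call for Kif14 was lost under 3 of 18 alternatives, among them without mouse 1 (-0.71), and that for Kif20b under 7 of 18, among them without mouse 2 (-0.26). Kif11, Kif18b and Kif4 were not called.

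Of 25 tested spindle and midzone partners, 7 rose and 9 fell at the same stage, shares near the 26.2% and 28.8% of all genes. Bub1, a checkpoint kinase, went from 132, 145 and 133 CPM to 640, 622 and 635 CPM (log2 2.23, SE 0.10). The cytokinesis factors Ect2 and Racgap1, the latter bound to Kif23, rose by 0.97 and 0.60. Aurkb and Incenp, the kinase and scaffold of the passenger complex carried by Kif20a, fell by 4.29 and 2.02, and the mitotic kinase Plk1 fell by 3.11. Of 16 proliferation genes, 5 rose, including Rrm2 (1.89) and Top2a (1.43), and 10 fell, including the cyclins Ccnb1 (-2.97) and Ccna2 (-2.10).

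Markers of other cells were raised in stage 5 wells. The 8 Sertoli cell markers summed to 381, 186 and 514 CPM there, against stage means of 42.8 to 125 CPM at stages 1 to 3, with Clu leading and Amh at 0 UMIs. Elongating spermatid markers averaged 137 CPM, with none of 6 at 0. When the 37 wells rich in either list were left out, 14 of them at stage 5, the change was 1.88 for Kif23, -1.69 for Kif20a, -1.52 for Kif2c and -1.57 for Kif22.

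**Figure D3:**
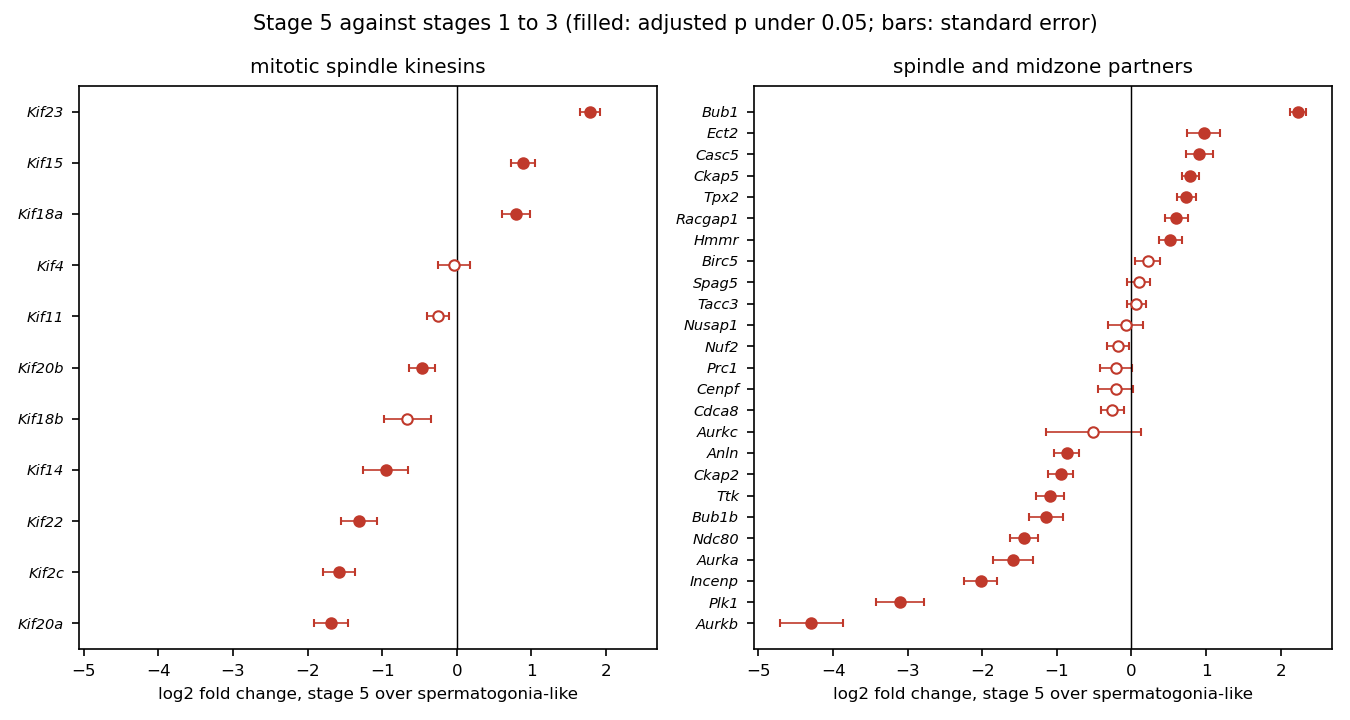
Log2 change at stage 5 over the spermatogonia-like stages 1 to 3 for the 11 mitotic kinesins and for their spindle and midzone partners, with standard errors; filled points have an adjusted p under 0.05. Kif23 (1.79) and Bub1 (2.23) are the highest of their panels, and Kif20a (-1.69) and Aurkb (-4.29) the lowest.

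Kif9 and Kif6, of the cilium and axoneme group, had the largest rises of the family; of that group's 4 tested members 3 rose and Kif7 fell. Kif9, a motor of the central apparatus of motile axonemes, stood at 12.3, 13.0 and 10.5 CPM in spermatogonia-like, 45.9, 30.8 and 47.9 CPM in leptotene and zygotene-like and 143, 150.4 and 198 CPM in pachytene-like cells. Each class lay wholly above the previous one. The first step was 1.89 (SE 0.19), the second 1.87 (SE 0.13) and the whole change 3.76 (SE 0.14, adjusted p = 1.28e-31) on the log2 scale. At stage 11 Kif9 reached 202, 241 and 286 CPM, its highest stage mean.

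Kif6, a related motile-cilium kinesin, rose later. It stood at 4.60, 0.828 and 7.54 CPM in spermatogonia-like and at 3.68, 5.03 and 9.84 CPM in leptotene and zygotene-like cells, a step that was not called (log2 0.40). It then reached 38.5, 52.4 and 83.3 CPM in pachytene-like cells (log2 3.11, SE 0.30, over the class before), above all earlier values. Kif6 had a mean of 6.32 CPM at stage 8 and stood at 17.7, 33.4 and 56.1 CPM at stage 9 and at 55.3, 77.3 and 109.6 CPM at stage 11. Kif27, a motile-cilium relative of the hedgehog regulator Kif7, had 2 high points. It stood at 77.6, 95.5 and 70.5 CPM at stage 5, dropped to 18.7, 24.0 and 23.7 CPM at stage 7 and climbed to 131, 159 and 161 CPM at stage 11. From spermatogonia-like to pachytene-like stages Kif27 rose by 1.02 (SE 0.11, adjusted p = 2.66e-12), after a fall of 0.41 at the first step. Kif7 itself, which works at the tip of the signalling cilium, went the other way, from 28.1, 37.8 and 25.9 CPM to 4.09, 3.83 and 5.89 CPM (log2 -2.56, SE 0.25, adjusted p = 3.51e-14).

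The 7 round spermatid markers summed to stage means of 31.9 to 38.4 CPM at stages 1 to 3 and 200 to 293 CPM at stages 9 to 11, with Acr holding most of their UMIs and at most 1 marker at 0 in the later stages. Elongating spermatid markers averaged 32.8 to 78.7 CPM at stages 9 to 11 and 35.3 to 73.4 CPM at stages 1 to 3. In between, at stages 6, 7 and 8, they averaged 236, 49.2 and 108 CPM, mouse 3 being the highest with 500, 73.0 and 247 CPM. With the wells rich in Sertoli or elongating spermatid markers left out, Kif9 changed by 3.65 and Kif6 by 3.37. The first step of Kif9 also kept its call with these wells left out. The part of round spermatid RNA in the rises was not tested.

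The heterotrimeric kinesin-2, made of Kif3a, Kif3b and the adaptor Kifap3, pulls intraflagellar transport trains towards the cilium tip, and its parts did not move alike. Kif3b stood at 22.5, 23.5 and 31.6 CPM in spermatogonia-like, 75.2, 93.0 and 88.7 CPM in leptotene and zygotene-like and 156, 175 and 228 CPM in pachytene-like cells, again without overlap at either step. Its whole change was 7.10-fold (log2 2.83, SE 0.11, adjusted p = 2.69e-31). Within the middle class, stage 6 had 17.4, 49.7 and 25.4 CPM and stage 7 had 102, 117 and 120.2 CPM, without overlap. Kifap3 rose from 49.1, 53.3 and 49.4 CPM to 149, 139 and 143 CPM (log2 1.53, SE 0.09).

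Kif3a had the highest mean CPM of the family in each of the 3 classes, counted at 3′ ends and so without correction for length. It stood at 618, 295 and 367 CPM in spermatogonia-like and 387, 387 and 465 CPM in pachytene-like cells. The change of 0.06 (SE 0.18, adjusted p = 0.755) was not called, and its sign turned under median-ratio (-0.20) and library size scaling (-0.35), the latter with a call (adjusted p = 0.0465). In leptotene and zygotene-like cells it was at 1051, 391 and 468 CPM, a rise of 0.54 (SE 0.19, adjusted p = 0.0137). Mouse 1, the CEL-Seq1 animal, lay far above the others there, and the call was lost without mouse 2 (0.56), without mouse 3 (0.63) and without alignment across mice (0.24). Kif17, a homodimeric kinesin-2, fell from 11.5, 11.3 and 16.1 CPM to 0.766, 3.22 and 1.67 CPM (log2 -3.29, SE 0.40, adjusted p = 1.20e-10), all pachytene-like values lying below all spermatogonia-like ones. In leptotene and zygotene-like cells it was already at 2.31, 3.85 and 1.94 CPM, which overlapped with the pachytene-like values.

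Both tested members of the depolymerase group, Kif2a and Kif24, rose early. Kif2c, the depolymerase counted with the mitotic group, fell at the first step (log2 -0.73). Kif2a, which trims microtubules at spindle poles, stood at 161, 149 and 127 CPM in spermatogonia-like, 305, 271 and 257 CPM in leptotene and zygotene-like and 280.4, 294 and 294 CPM in pachytene-like cells. The first step was a rise of 0.95 (SE 0.09, adjusted p = 2.59e-14) and the second (0.04) was not called. By stage, Kif2a moved from 143, 190.3 and 149 CPM at stage 4 to 308, 360.2 and 319 CPM at stage 5, so its higher level began with the Stra8-led cells. Kif24, which acts at the mother centriole to hold back cilium growth, rose from 17.4, 14.1 and 9.13 CPM to 41.9, 26.9 and 28.0 CPM (log2 1.42, SE 0.19, adjusted p = 9.77e-10). Its first step (0.79) lost its call without mouse 2 (0.63).

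From spermatogonia-like to pachytene-like stages, the cargo carriers fell or were not called. Of 9 tested, 0 rose and 8 fell, with a median of -0.91 (all genes: 40.4% higher, 43.9% lower, median -0.08). Kif1c, a kinesin-3 of vesicle and mRNA transport, fell from 72.6, 73.7 and 61.3 CPM to 10.8, 10.4 and 7.88 CPM (log2 -2.87, SE 0.15, adjusted p = 1.50e-24). Most of that was already present in leptotene and zygotene-like cells, with 18.3, 13.7 and 13.4 CPM. The 3 kinesin-1 heavy chains followed different courses. Kif5b, the ubiquitous one, stood at 551, 213 and 164 CPM, then 482, 205 and 159 CPM, then 205, 107 and 86.7 CPM, lower in each mouse at the last step (log2 -0.97, SE 0.09) with mouse 1 the highest throughout. Kif5a, known from neurons, moved from 35.0, 35.1 and 47.5 CPM to 5.23, 4.68 and 11.8 CPM (log2 -2.43, SE 0.20, adjusted p = 1.57e-16). By stage, Kif5a dipped to 10.7, 8.19 and 15.8 CPM at stage 5 and was back at 47.5, 39.0 and 52.5 CPM at stage 7. Kif5c was high at stage 1 alone, with 80.7, 84.5 and 68.8 CPM, and stood at 15.7, 21.6 and 23.4 CPM at stage 2. Its change from earliest to latest stage was -3.04 (SE 0.29), but between the classes it was -0.84 (SE 0.21), because fitted values average the log levels of 3 stages.

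Among the kinesin-3 motors, Kif1b, which carries synaptic vesicle precursors and mitochondria, peaked at stage 5. It moved from 129, 129 and 131 CPM at stage 4 to 318, 259 and 209 CPM at stage 5 and then to 177, 99.3 and 153 CPM at stage 6. Against the spermatogonia-like class the stage 5 rise was 1.45 (SE 0.14, adjusted p = 3.65e-13), without overlap. The endosomal motor Kif16b rose there by 0.81 (SE 0.24), a call lost without mouse 2 (0.55). Kif13a fell from 24.5, 9.94 and 12.1 CPM at stage 1 to 1.88, 2.18 and 1.48 CPM at stage 11 (log2 -3.11, SE 0.58). Kif13b fell by 1.38 (SE 0.31) between the classes, with overlapping values and a call lost without alignment across mice (-0.68).

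Kif21b, which regulates microtubule growth, fell at the first step and rose at the second. It stood at 26.2, 21.0 and 39.5 CPM in spermatogonia-like, 4.84, 0.892 and 9.95 CPM in leptotene and zygotene-like and 14.8, 20.4 and 32.0 CPM in pachytene-like cells. The first step was -2.22 (SE 0.31, adjusted p = 8.19e-09) and the second 1.86 (SE 0.31, adjusted p = 6.16e-07), both without overlap. From spermatogonia-like to pachytene-like stages it was not called (-0.37, adjusted p = 0.0764), though library size scaling called it lower. Between the single earliest and latest stages, Kif21b was the only cargo carrier called higher (log2 1.05).

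Kif26a, an atypical kinesin without motor activity that restrains signalling by the GDNF receptor Ret, had the steepest fall of the family. It stood at 70.6, 79.0 and 65.4 CPM in spermatogonia-like and 0.0896, 3.16 and 2.32 CPM in pachytene-like cells (log2 -4.98, SE 0.31, adjusted p = 8.41e-19). Within the first class it already dropped, from 117, 119 and 121 CPM at stage 1 to 21.9, 9.93 and 11.6 CPM at stage 3. It was again at 58.9, 49.1 and 28.8 CPM at stage 5, then at 0, 0 and 8.47 CPM at stage 6. The stage 5 level lies in the same wells as the raised Sertoli cell markers given above, and their part in it was not tested.

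**Figure D4:**
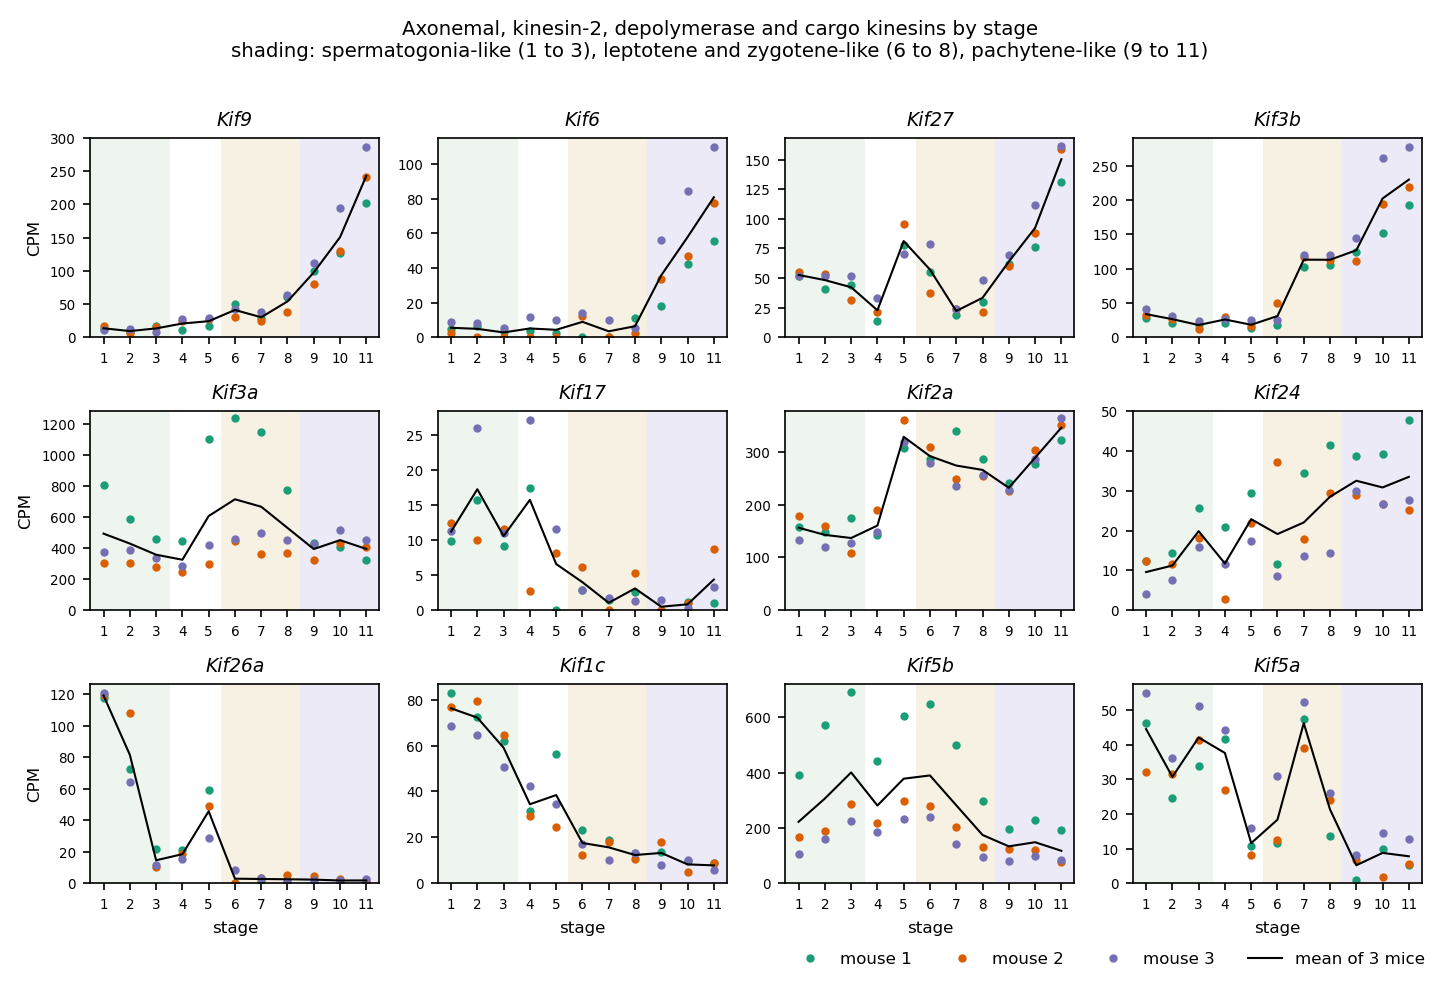
CPM at stages 1 to 11 for 12 kinesins of the axonemal, kinesin-2, depolymerase and cargo groups and Kif26a; points are the 3 mice and lines their mean. Kif9, Kif6 and Kif3b climb to stage 11, Kif1c and Kif26a are lowest late, and Kif27 has high points at stages 5 and 11.

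Genes that work with these motors were taken from lists by function, and their counts from spermatogonia-like to pachytene-like stages stand beside 40.4% higher and 43.9% lower among all genes, with a median of -0.08. All 21 tested intraflagellar transport genes rose, with a median of 2.91, and 18 rose already at the first step (median 1.29; 31.3% of all genes rose there) with none falling. Ttc30a1, Wdr35 and Wdr19 rose by 3.66, 3.33 and 3.22. Of 23 cytoplasmic dynein and dynactin genes, which move cargo in the opposite direction to most kinesins, 13 rose and 8 fell (median 0.56). The largest rises were those of Dync2li1 (4.34) and Dync1i1 (4.18), a light intermediate chain of the ciliary dynein and an intermediate chain of the cytoplasmic one, and of the light chain Dynlrb2 (4.11). Of 12 tubulin genes 4 rose and 7 fell (median -1.11), with Tubb2a, Tuba4a and Tubb5 lower by 5.25, 4.61 and 4.28.

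Of 13 other kinesins, light chains and adaptors, 5 rose and 5 fell (median 0.03), again beside 40.4% and 43.9% of all genes. Kifc3, a minus-end directed motor, rose from 9.60, 18.2 and 13.5 CPM to 52.1, 55.1 and 71.8 CPM (log2 2.28), and the light chain Klc2 rose by 1.82 while the heavy chains Kif5a, Kif5b and Kif5c fell. Kifc1, the minus-end motor that focuses spindle poles, went from 10.1, 24.8 and 16.4 CPM to 2.16, 7.49 and 6.58 CPM and was called lower. Cenpe, the kinetochore kinesin, fell by 1.04. Of 25 spindle and midzone partners 11 rose and 7 fell (median 0.06), with Spag5 higher by 2.04 and Aurkb and Plk1 lower by 4.29 and 1.89. Of 16 proliferation genes 4 rose and 11 fell (median -1.89), led by Mcm2 (-5.51), Ccna2 (-4.33) and Foxm1 (-3.10). In this comparison the mitotic kinesins counted 1 riser and 7 fallers of 11.

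Summed by role, the 11 mitotic kinesins made up 1159, 1220 and 877 CPM in spermatogonia-like, 857, 707 and 662 CPM in leptotene and zygotene-like and 835, 795 and 678 CPM in pachytene-like cells. The spermatogonia-like stages differed, with 806, 1014 and 556 CPM at stage 1 and 1499, 1476 and 1174 CPM at stage 3. Stage 11 had 816, 736 and 660 CPM, above stage 1 in mice 1 and 3. The 12 cargo carriers went from 901, 525 and 477 CPM to 338, 249 and 234 CPM, lower in every mouse. The 5 axonemal kinesins went from 90.2, 98.8 and 95.9 CPM to 275.5, 309 and 402 CPM, and the 3 depolymerases from 178, 163 and 137 CPM to 323, 323 and 325 CPM. All 38 together came to 3063, 2420 and 2074 CPM at first and 2329, 2257 and 2344 CPM at last, so the sum was lower in mice 1 and 2 and higher in mouse 3. As a share of all kinesin UMIs, the mitotic group went from 44.2% ± 6.38 to 32.6% ± 3.87 and the cargo group from 24.7% ± 4.27 to 11.5% ± 2.47 (SD, n = 3). The axonemal group went from 3.85% ± 0.84 to 15.1% ± 2.70 and the depolymerases from 6.29% ± 0.46 to 14.2% ± 0.32. These sums are descriptions without a test and depend on the role given to each member.

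Pachytene-like wells held more UMIs, which changes the picture per cell. The mitotic kinesins averaged 29.3 UMIs per cell in spermatogonia-like, 9.71 in leptotene and zygotene-like and 41.5 in pachytene-like wells, so their sum was lower as CPM and higher per cell at the end. The axonemal kinesins went from 2.71 to 19.3 UMIs per cell and the cargo group from 17.9 to 14.9. All kinesins together went from 70.9 through 30.6 to 128 UMIs per cell. Relative to the spike-in (ERCC) UMIs of the same wells, the log2 change from spermatogonia-like cells of that sum was -0.98 in leptotene and zygotene-like and 1.01 in pachytene-like cells.

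**Figure D5:**
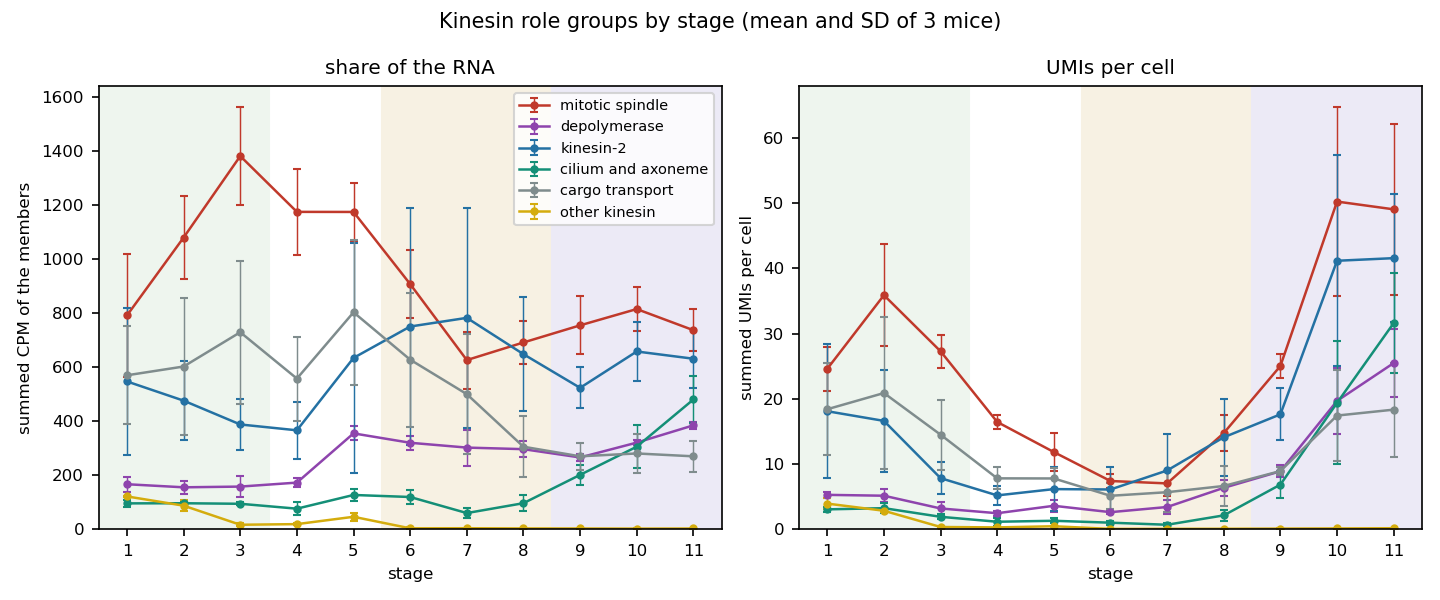
Summed kinesin CPM and summed kinesin UMIs per cell by role at stages 1 to 11, as means ± SD of 3 mice. The axonemal sum climbs on both scales towards stage 11. Averaged over the stages of a class, the mitotic sum is lower as CPM but higher per cell in pachytene-like than in spermatogonia-like cells.

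Single wells were compared after thinning each to 5000 UMIs, which left 309, 275 and 316 wells in the 3 classes and left out 22, 93 and 6 shallower ones. Kif9 was then found in 6.80%, 20.7% and 49.7% of wells (25.4%, 38.3% and 94.7% without thinning), and Kif6 in 1.62%, 1.45% and 20.9% (11.2%, 8.15% and 75.8%). Kif26a was found in 22.7%, 0.727% and 0.316%, and Kif4 in 35.9%, 10.9% and 0.949%. At 5000 UMIs per well these genes give few molecules, so the shares follow the mean level. They do not show separately that more cells expressed a gene, and they pool wells over the mice. Kif23 was found in 42.1%, 19.3% and 13.3%, but without thinning in 78.6%, 36.1% and 74.5%, the late wells being deeper. Of the 11 mitotic kinesins, a thinned well held 2.84 ± 0.40 at stage 1, 4.55 ± 0.39 at stage 3 and 2.32 ± 0.37 at stage 11 (SD, n = 3).

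The remaining 8 members had too few UMIs for a test. In the staged wells Kif12 had 0 UMIs, Kif19a 11, Kif1a 34, Kif26b 37, Kif2b 70, Kif21a 97, Kif3c 138 and Kif4-ps 161. Kif4-ps, annotated as a transcribed processed pseudogene at chr12:101145614-101149758, stood at means of 0.18, 1.86 and 8.27 CPM over the 3 classes, while Kif4 fell. Only 0.689% of its stretches of 40 bases occur in the Kif4 transcript and none in the last 500 bases, so reads near the 3′ end can be told apart by sequence. Exons of Kif18a, Kif20a, Kif2a, Kif4, Kif7, Kif22, Kif6, Kif27 and Kif5b overlap exons of genes on the other strand (among them Mettl15, Cdc23, Dimt1, Pdzd11 and Ticrr), and those of Kif17 overlap Sh2d5 on the same strand. Whether the counting used strand is not given in the sources used here, so these counts could include UMIs of the neighbour.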

How the data were processed

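Single-cell libraries of sorted Dazl-GFP+ testis cells from 3 mice were analysed. Per the submitters' processing notes, reads were mapped with BWA 0.7.10 to mm10. The authors deposited 3 tables of genes by wells: UMI counts (used throughout), read counts, and estimated counts of transcripts (not whole numbers, rounded to whole numbers here). The last 2 served as alternatives only.

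Wells with at least 1000 UMIs were aligned across mice (Seurat 5.3.0, R 4.3.3), clustered (scanpy 1.11.5, Leiden resolution 1) and ordered by diffusion pseudotime on odd-numbered autosomes without kinesins or listed genes. 3 clusters of low depth (194 wells) and an elongating spermatid-like cluster (12 wells) were left out. UMIs were summed per mouse and stage and tested on even-numbered autosomes, X, Y and all listed genes after filterByExpr with edgeR 4.0.16 (quasi-likelihood F test, TMM factors, stage terms and mouse block); DESeq2 1.42.0 was an alternative. Benjamini-Hochberg adjustment ran over all 5297 genes. Deviations of sums of the same mouse correlated (mean r 0.41 to 0.76, lowest 0.25), and these sums come from the same animal, so the mouse was kept as a block. No term allowed a change to differ between mice, and stages of the same mouse entered as separate sums. Counts were simulated for pachytene-like against spermatogonia-like stages, with 100 of 5297 genes changed at each of 2 sizes. There, 95% of 2-fold and 99% of 4-fold changed genes were recovered, and 0.0981% of unchanged genes were called. In the data 84.4% of genes were called in this comparison, so these rates need not hold for them.

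Named kinesins were the 8 largest rises (7 were found) and 8 largest falls in that comparison with the same direction in 3 of 3 mice, the 4 largest rises at the first step, the remaining tested mitotic, kinesin-2 and depolymerase members, and 3 genes of each other list. Others, and the comparison of stage 5, were chosen after their values were seen. Members and lists were chosen with earlier results of these data known. The columns of mouse 1 do not tell its 8 libraries apart. Doublets were not called, since wells were sorted singly. Gene positions follow GENCODE vM21 (GRCm38).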

Additional observations from a re-analysis of the deposited data

Results flagged for a closer look

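Kinesin molecules were also present in wells that no comparison used, above the level that a count of 0 allows (3 UMIs of the total). In the 472 wells under 1000 UMIs, kinesins made up 2178 CPM against a limit of 16.7, with Kif3a holding 87 of 391 kinesin UMIs. In the 194 wells of the low-depth clusters they made up 2262 CPM against 6.28, Kif3a holding 361 of 1080. In the 12 elongating spermatid-like wells they made up 2399 CPM against 14.0, Kif3a holding 56 of 513. These values carry no TMM scaling; on that plain scale the staged classes averaged 1915 to 2694 CPM.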

How the results depend on the processing

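Of the 20 named members called between spermatogonia-like and pachytene-like stages, 18 kept direction and call under all 18 alternatives, Kif13b and Kif14 being the exceptions given above. Kif13a, Kif16b, Kif1b, Kif5b and Kif5c, also called lower there, were not followed singly in this comparison. Its fallers numbered 18 in the reported fit and from 15 (no alignment across mice) to 23 (library size alone) over the alternatives. Over all comparisons, 1286 of 1323 single-gene values of called genes kept their call, 37 lost it and 0 turned sign. Counts that moved by over 1.5 times, cause not tested, were the risers of leptotene and zygotene-like over spermatogonia-like cells (5; 3 to 5 leaving out 1 mouse, 8 on read counts, 9 with stages from even autosomes), the fallers of pachytene-like against leptotene and zygotene-like cells (9; 5 at Leiden resolution 0.6, 4 without alignment, 15 by library size alone) and the fallers of latest against earliest stage (13; 20 by library size alone). Without the replicate block for mouse, higher and lower calls were 7 and 17 (pachytene-like against spermatogonia-like), 4 and 14, 7 and 8, 7 and 10, and 8 and 7 at stage 5, and 25 kinesins changed over the stages. Signs turned only for kinesins not called in the reported fit: Kif20a (-0.11 by median ratio and by DESeq2, -0.085 to 0.29 leaving out 1 replicate, -0.23 by library size, -0.064 without stage 1), Kif20b (0.032 without filter, 0.13 at resolution 0.6, 0.083 with even autosomes), Kif2c (0.072 without filter, -0.22 to 0.011 leaving out 1 replicate, 0.049 on reads, 0.0078 with sums of at least 20 cells, 0.19 with even autosomes) and Kif3a (-0.20 by median ratio, -0.18 by DESeq2, -0.037 without block, -0.13 to 0.32 leaving out 1 replicate, -0.047 on transcripts, -0.042 with wells of at least 3000 UMIs, -0.056 with sums of at least 20 cells, -0.030 with even autosomes, -0.073 without the gate-sorted library, -0.043 without marker-rich wells, -0.35 by library size).

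Role sums depended on the scale, by construction of UMIs per cell and per spike-in (ERCC) UMI. In log2 pachytene-like over spermatogonia-like, as TMM-scaled CPM, plain CPM, per cell and per ERCC UMI, they were -0.49, -0.86, 0.49 and 0.66 (mitotic), 1.03, 0.64, 1.99 and 2.14 (depolymerases), 1.78, 1.36, 2.80 and 2.93 (axonemal), -1.17, -1.55, -0.23 and -0.058 (cargo) and -0.11, -0.49, 0.86 and 1.01 (all); kinesin-2 gave 0.41, 1.32 per cell and 1.47 per ERCC UMI. For leptotene and zygotene-like over spermatogonia-like, as TMM-scaled CPM, per cell and per ERCC UMI, they were -0.54, -1.60 and -1.35 (mitotic), 0.94, -0.14 and 0.11 (depolymerases), 0.59, -0.54 and -0.30 (kinesin-2), -0.08, -1.17 and -0.92 (axonemal), -0.42, -1.63 and -1.39 (cargo) and -0.12, -1.23 and -0.98 (all). Mitotic kinesins detected per well differed by -1.29 (pachytene-like minus spermatogonia-like) after thinning and by 0.47 without. The scaling, stage 1, marker, plain CPM and thinning alternatives were added after seeing the data. Depth limits the 8 untested members, with 0 to 161 UMIs.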
